A study of Mus musculus with 6 samples.

Results

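The genes described here encode 10 haematopoietic transcription factors and cofactors that work in complexes with GATA factors in blood cells: Tal1, Lyl1, Lmo2, Ldb1, Klf1, Runx1, Fli1, Gfi1b, Cbfa2t3 and Myb. They were chosen by name, and each is represented by the probe sets of a mouse gene array whose platform annotation gives that symbol and no other. All 10 genes were found, on 11 of 34760 probe sets and among 19937 genes with such a probe set. Cbfa2t3 had 2 probe sets and each other gene had 1.

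RNA came from 230-238, which the labels call a mouse B-cell line. The control group (GFP, 3 arrays) had been infected with a plasmid encoding green fluorescent protein, and the other group (GFP+FOG1, 3 arrays) with a plasmid encoding that protein and FOG1, the cofactor encoded by Zfpm1. Cells of both groups were cultured for 3 days, sorted for GFP fluorescence and cultured for a further 4 days, so all 6 arrays share the infection and the sort, and uninfected cells were not analysed here. All arrays come from this 1 line, the promoter driving FOG1 is not given in the sources used here, and the labels call the samples biological replicates without saying whether they were infected separately.

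GATA factors bind DNA at short GATA sites, and in erythroid cells, megakaryocytes and mast cells they do so beside other factors. TAL1, or its relative LYL1, binds an adjacent E-box as a dimer with an E protein, LMO2 bridges it to the GATA factor, and LDB1 holds such complexes together and brings distant ones into contact. KLF1 binds CACCC boxes of erythroid genes, RUNX1 and FLI1 act with GATA factors at megakaryocyte genes, and GFI1B and CBFA2T3 (also called ETO2) bring corepressors. MYB sustains progenitors of many lineages, early B cells included, and RUNX1 is needed for early B-cell development.

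Values are log2 signals, on which a difference of 1 is a doubling. The array medians lay between 6.98 and 7.04, and pairs of arrays correlated at 0.993 to 0.996 over all probe sets. On the first principal component, GFP+FOG1 replicate 1 lay at 1.15, between the GFP arrays (-16.1 to -11.4) and the other GFP+FOG1 arrays (17.0 and 24.3). All 15 measured B-lineage markers gave signals above those of 95% of olfactory receptor probe sets in GFP cells, including Pax5 at 12.14 ± 0.03 and Ebf1 at 12.52 ± 0.03 (SD, n = 3), while 0 of 10 mast cell and basophil markers did. Of the measured markers of other cell types, 2 of 4 erythroid, 4 of 6 megakaryocyte, 1 of 9 monocyte and granulocyte, 2 of 8 T and NK cell and 2 of 8 stem cell markers did. Zfpm1, the added gene, had 9.41, 9.49 and 9.43 on the GFP arrays and 10.21, 10.16 and 10.17 on the GFP+FOG1 arrays, 1.67-fold higher. Its GFP mean was at percentile 83.8 of all probe sets and above 100% of olfactory receptor probe sets. The GFP cells therefore cannot be taken to lack Zfpm1 RNA.

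Because FOG1 acts through factors bound at GATA sites, the 250 bases before the start sites of the genes were searched on both strands for GATA with an A or T before it and an A or G after it. RefSeq promoters (build GRCm38.p6) were matched for 8 of the 10 genes, with 13 start sites in all, and Lmo2 and Fli1 had no entry. A match lay before a start site of 5 of the 8 genes, on 5 of the 13 sequences, beside which 26.5% of all 32851 promoters of this length hold such a match. The following are the promoters that hold a match, for the DNA-binding factors among those 5 genes. Each match is in capitals (a match on the opposite strand reads TATC in its middle). The Tal1 sequence is chr4:115056176-115056425 on the plus strand, that of Klf1 is chr8:84901732-84901981 on the plus strand, and that of Gfi1b is chr2:28621983-28622232 on the minus strand.
Tal1: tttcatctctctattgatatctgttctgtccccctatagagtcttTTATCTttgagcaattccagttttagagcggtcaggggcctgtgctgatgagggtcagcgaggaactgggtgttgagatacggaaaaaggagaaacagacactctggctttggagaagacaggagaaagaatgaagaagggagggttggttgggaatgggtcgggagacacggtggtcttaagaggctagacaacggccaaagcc
Klf1: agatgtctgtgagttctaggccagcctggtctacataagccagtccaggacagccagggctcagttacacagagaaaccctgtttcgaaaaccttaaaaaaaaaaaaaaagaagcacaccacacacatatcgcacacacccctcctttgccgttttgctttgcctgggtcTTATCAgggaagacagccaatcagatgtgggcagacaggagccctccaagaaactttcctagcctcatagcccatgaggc
Gfi1b: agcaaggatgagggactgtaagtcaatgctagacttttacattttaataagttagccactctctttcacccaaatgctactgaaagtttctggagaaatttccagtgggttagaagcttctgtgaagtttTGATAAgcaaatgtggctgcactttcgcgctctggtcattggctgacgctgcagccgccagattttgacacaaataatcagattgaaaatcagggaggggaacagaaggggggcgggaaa
The match begins 205 bases before 1 of the 2 start sites of Tal1, 80 bases before that of Klf1 and 120 before that of Gfi1b. The other Tal1 sequence, chr4:115057561-115057810, holds no match and is not printed. The other matches were in Cbfa2t3 (118 bases before 1 of its 2 start sites) and Ldb1 (240 and 200 bases before 1 of its 3). The pentamer CACCC, the box that KLF1 binds, was present before a start site of all 8 genes and in 11 of the 13 sequences, against 52.0% of all promoters. The E-box form CAGNTG was present for 5 genes and in 6 sequences, against 44.8%, and TGTGGT, a RUNX-type site, only for Klf1, against 14.0%. The ETS-type core CCGGAA was present for 3 genes (Cbfa2t3, Lyl1 and Runx1) and in 3 sequences, against 12.0%. These are matches of letters in a short window and do not show that a factor binds there. Klf1 and Lyl1 both lie on chromosome 8, with 8 protein-coding genes between them in the RefSeq order.

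In the GFP cells 9 of the 10 genes gave signals above those of at least 95% of probe sets for genes that are not expected in blood cells. As such genes the olfactory receptors were taken, whose 1035 probe sets had a median of 5.41 and a 95th percentile of 6.91 in GFP cells. That cutoff lies below the median of all probe sets, 6.99. At their brightest probe sets, 10619 of all 19937 genes lay at or above this median, so passing the cutoff does not set a gene apart from most others. Probe sets differ in how strongly they bind, so the signals that follow do not rank the genes by amount of RNA. RNA was measured from whole cultures, so fewer cells expressing a gene and less RNA in each cell cannot be told apart.

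Among the DNA-binding partners, Tal1 (probe set 10507131) had a GFP mean of 7.33 ± 0.15 (SD, n = 3), at percentile 55.6 of all probe sets and above 98.0% of the olfactory receptor probe sets. Its relative Lyl1 (10573419) had 10.50 ± 0.10, at percentile 92.9. Klf1 (10573457), the erythroid CACCC-box factor, had 5.72 ± 0.07, at percentile 25.4 and above 63.5% of the olfactory receptor probe sets. It was the only one of the 10 genes inside that range, so its signal may hold little besides background and a change of its RNA could be understated. Runx1 (10441003) had 11.32 ± 0.04 and Myb (10368199) 11.56 ± 0.05, at percentiles 96.7 and 97.4. The ETS-family factor Fli1 (10592067) had 10.49 ± 0.01, at percentile 92.8, and the zinc finger repressor Gfi1b (10481304) 8.86 ± 0.04, at percentile 76.8.

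The genes without DNA binding of their own also had clear signals. The bridging protein gene Lmo2 (10474201) had 8.93 ± 0.04, at percentile 77.9, and the dimerizing cofactor gene Ldb1 (10468159) had 11.44 ± 0.03, at percentile 97.1. The corepressor gene Cbfa2t3 had 9.62 ± 0.05 at probe set 10582429 and 8.98 ± 0.08 at 10582427. The 3 GATA genes of blood cells lay inside the olfactory range in the same arrays. Gata1 had 6.77 ± 0.09, Gata2 6.84 ± 0.05 and Gata3 6.23 ± 0.07, above 92.2%, 93.8% and 80.3% of the olfactory receptor probe sets.

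**Figure D1:**
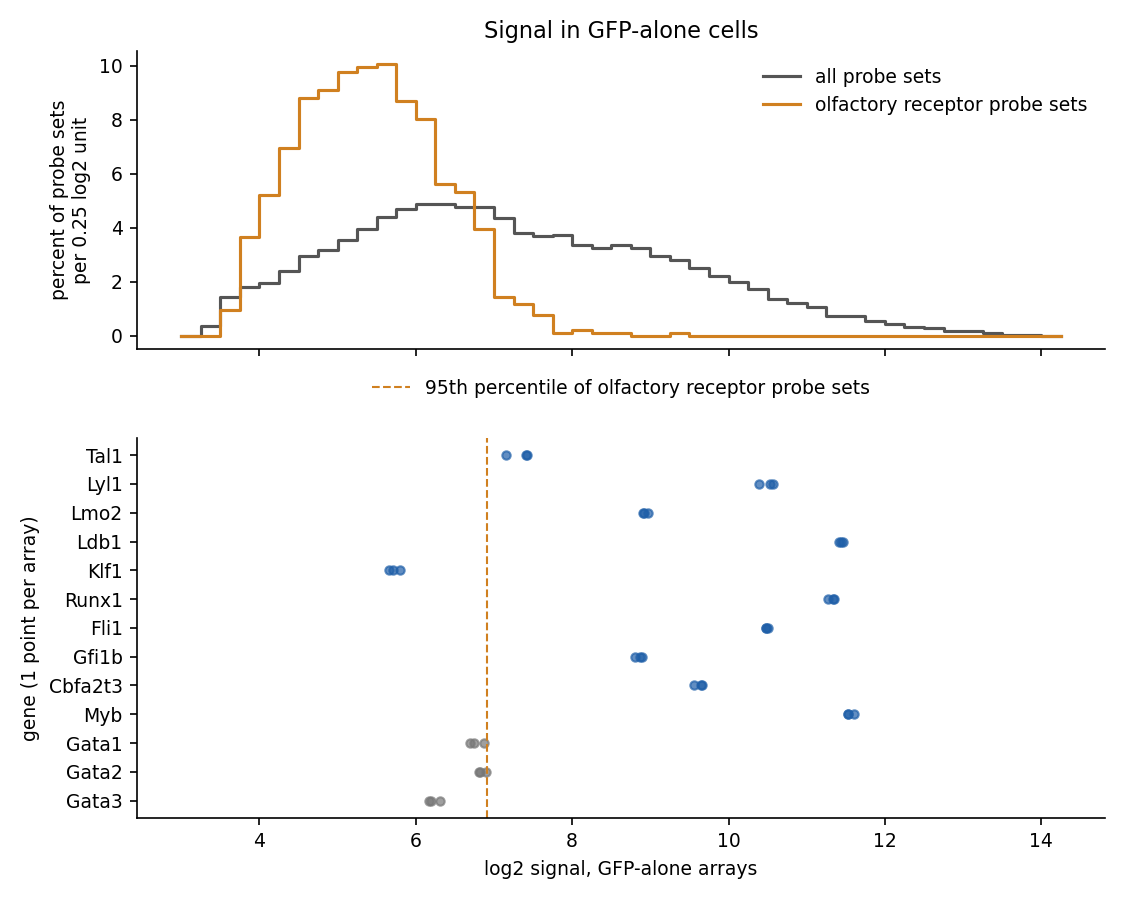
Log2 signal in GFP cells. The upper panel gives the percent of all 34760 probe sets and of the 1035 olfactory receptor probe sets in each bin of 0.25 log2 units, and the lower panel gives 1 point per GFP array for each partner gene (blue, brightest probe set) and for Gata1, Gata2 and Gata3 (grey), with a dashed line at 6.91, the 95th percentile of olfactory receptor probe sets. All blue genes except Klf1 lie to the right of the line, and the means of the 3 GATA genes lie to its left.

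The comparison of GFP+FOG1 with GFP asks whether the partner genes differ in level when these B cells are given FOG1. None of the 11 probe sets of the 10 genes passed an adjusted p of 0.05 (limma fitted on all 34760 probe sets with Benjamini-Hochberg adjustment), and 0.224% of all probe sets did, 36 higher and 42 lower. At an unadjusted p under 0.05 there was 1 of the 11, that of Lmo2, against 12.5% of all probe sets. The groups did not overlap at 2 of the 11, those of Lmo2 and Fli1, against 19.6% of all probe sets. At their brightest probe sets 6 genes had a positive and 4 a negative log2 change, from -0.19 to 0.14, with a median of 0.035 beside -0.010 for all probe sets. The median size of the change, whatever its sign, was 0.047 for the 10 genes, 0.062 for all 19937 genes at their brightest probe sets and 0.072 for all probe sets.

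Lmo2, the LIM-domain bridge between TAL1 and GATA factors, had the change of largest size among the 10. Its signals were 8.92, 8.97 and 8.91 on the GFP arrays and 8.77, 8.67 and 8.80 on the GFP+FOG1 arrays. All 3 GFP+FOG1 arrays lay below all 3 GFP arrays. The log2 change was -0.19 (SE 0.053, 95% interval -0.32 to -0.058), or 1.14-fold lower, and did not pass (limma adjusted p = 0.28). Of all probe sets, 4.03% had an unadjusted p as small or smaller.

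Ldb1, which joins LMO2-containing complexes to each other, had 11.47, 11.44 and 11.42 on the GFP arrays and 11.45, 11.42 and 11.42 on the GFP+FOG1 arrays. The groups overlapped over a total range of 0.052 log2 units. Its log2 change was -0.0098 (SE 0.042, interval -0.11 to 0.091, limma adjusted p = 0.94) and turned to 0.016 when each array was centred on its median. The interval reaches from 0.926-fold to 1.06-fold.

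The E-box factors that LMO2 bridges had small changes with wider intervals. Tal1 had 7.15, 7.42 and 7.41 on the GFP arrays and 7.39, 7.34 and 7.36 on the GFP+FOG1 arrays. GFP replicate 1 was the lowest of the 6, and the GFP+FOG1 arrays lay between it and the other GFP arrays. Its log2 change was 0.035 (SE 0.080, interval -0.16 to 0.23, limma adjusted p = 0.87), and -0.052 without GFP replicate 1. Lyl1 had 10.54, 10.57 and 10.39 on the GFP arrays and 10.55, 10.48 and 10.58 on the GFP+FOG1 arrays. GFP replicate 3 was the lowest, and the groups overlapped. Its log2 change was 0.036 (SE 0.063, interval -0.12 to 0.19, limma adjusted p = 0.83), and -0.019 without GFP replicate 3.

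Klf1 had 5.80, 5.71 and 5.66 on the GFP arrays and 5.67, 5.67 and 5.72 on the GFP+FOG1 arrays. All 6 values lay in the range of olfactory receptor probe sets, and the groups overlapped. The log2 change was -0.035 (SE 0.052, interval -0.16 to 0.089, limma adjusted p = 0.80) and was 0.0023 without GFP replicate 1.

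Gfi1b, the repressor that recruits the LSD1 and CoREST proteins, had the highest positive change of the 10. Its signals were 8.81, 8.89 and 8.87 on the GFP arrays and 8.87, 8.99 and 9.13 on the GFP+FOG1 arrays. GFP+FOG1 replicates 2 and 3 lay above all GFP arrays, and replicate 1 lay among them. The log2 change was 0.14 (SE 0.074, interval -0.039 to 0.32, limma adjusted p = 0.48). It was 0.073 without GFP+FOG1 replicate 3 and 0.20 without GFP+FOG1 replicate 1, and did not pass in either case.

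Cbfa2t3, whose product is a corepressor of TAL1 complexes, was read by 2 probe sets. The brighter had 9.64, 9.66 and 9.56 on the GFP arrays and 9.68, 9.62 and 9.74 on the GFP+FOG1 arrays, and the dimmer had 9.05, 9.01 and 8.89 and then 8.98, 8.93 and 9.02. At both, GFP replicate 3 was the lowest array and the groups overlapped. The log2 changes were 0.058 (SE 0.053, interval -0.070 to 0.18, limma adjusted p = 0.67) at the brighter and -0.00014 (SE 0.059, interval -0.14 to 0.14, adjusted p = 1.00) at the dimmer. The latter turned to 0.025 after median centring.

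Fli1, the ETS factor of megakaryocytes and endothelium that B cells also express, had 10.49, 10.51 and 10.48 on the GFP arrays and 10.52, 10.61 and 10.58 on the GFP+FOG1 arrays. All 3 GFP+FOG1 arrays lay above the GFP arrays, replicate 1 by the least. The log2 change was 0.078 (SE 0.045, interval -0.030 to 0.19, limma adjusted p = 0.51). In the opposite direction to Lmo2, this was the only other gene of the 10 whose groups did not overlap.

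Runx1, a factor of stem cells, megakaryocytes and lymphocytes, had 11.34, 11.35 and 11.28 on the GFP arrays and 11.29, 11.32 and 11.31 on the GFP+FOG1 arrays. The GFP+FOG1 values all lay between the lowest and the next GFP value. Its log2 change was -0.017 (SE 0.044, interval -0.12 to 0.088, limma adjusted p = 0.89), and 0.0084 after median centring. Myb, the progenitor factor, had 11.61, 11.53 and 11.53 on the GFP arrays and 11.59, 11.61 and 11.65 on the GFP+FOG1 arrays. GFP replicate 1 lay among the GFP+FOG1 arrays, so the groups overlapped. Its log2 change was 0.063 (SE 0.047, interval -0.049 to 0.18, limma adjusted p = 0.60).

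**Figure D2:**
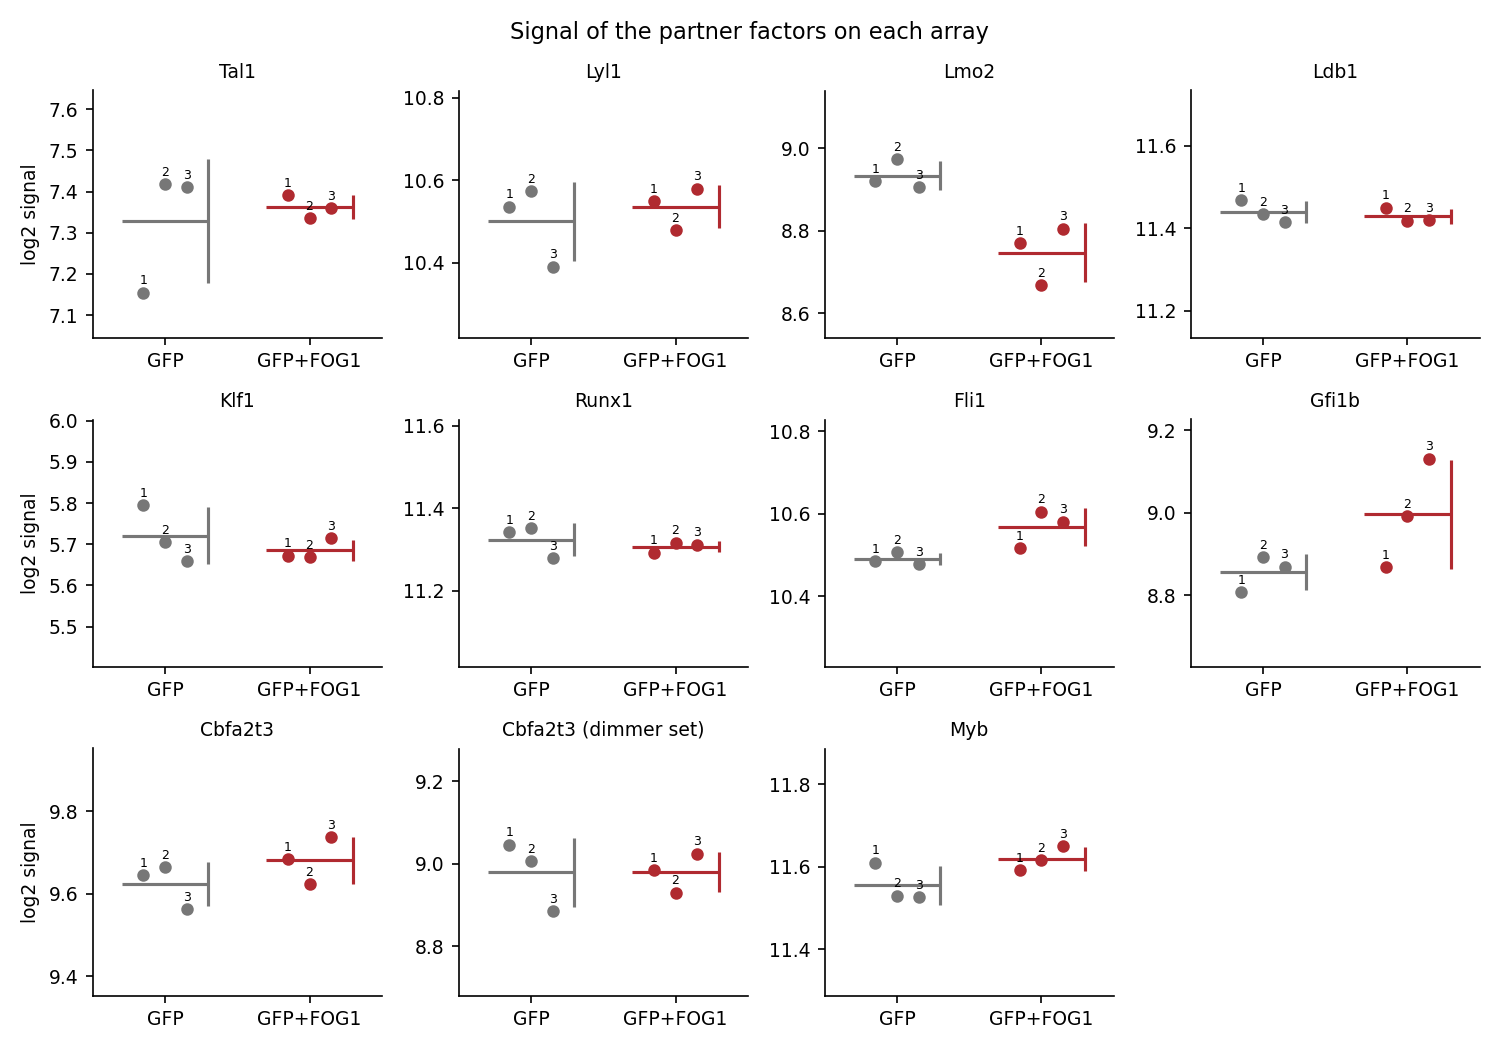
Log2 signal of the 11 probe sets on each array, with GFP in grey and GFP+FOG1 in red. Points are arrays with their replicate number, horizontal lines are group means and vertical lines show the mean ± SD (n = 3), and every panel spans the same width of log2 signal. Only Lmo2 and Fli1 have groups that do not overlap.

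The intervals give the precision of each change in signal. For Klf1, whose signal lies among the olfactory receptor probe sets, they do not bound the change in RNA. The farthest end of any of the 11 intervals was 0.32 log2 units from 0, a change of 1.25-fold, for Gfi1b. The smallest change that passed the threshold at any of the 34760 probe sets was 0.39 log2 units, so a change of the size seen for Lmo2 or Gfi1b was smaller than any that was called with 3 arrays in each group. Zfpm1 itself had a log2 change of 0.74 (SE 0.045, interval 0.63 to 0.85, limma adjusted p = 0.0038). That interval lay wholly above the intervals of all 10 partner genes.

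**Figure D3:**
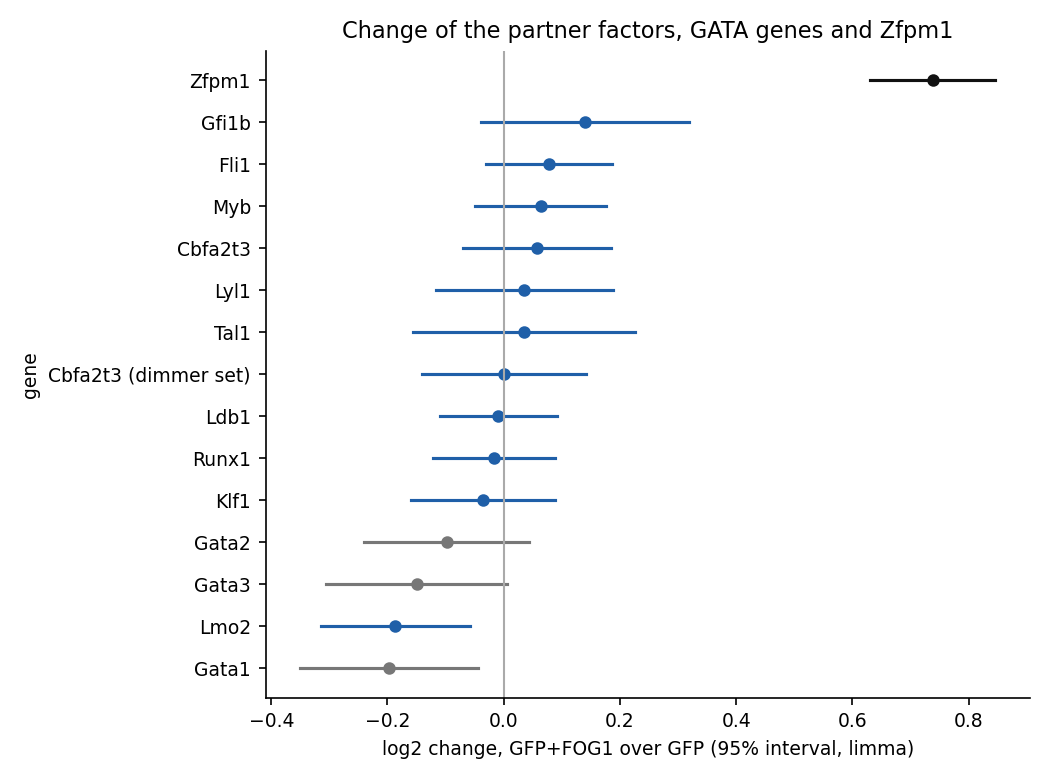
Log2 change of GFP+FOG1 over GFP with its 95% interval from limma for the 11 probe sets of the partner genes (blue), Gata1, Gata2 and Gata3 (grey) and Zfpm1 (black). Zfpm1 stands at 0.74, and all partner genes lie between -0.19 and 0.14, where the intervals of Lmo2 and of Gata1 do not reach 0 before adjustment.

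The genes differed in their spread between arrays of the same group (pooled SD). It was lowest for Ldb1, at 0.023 log2 units or percentile 2.16 of all probe sets, and highest for Tal1, at 0.11 or percentile 66.3. Gfi1b was at percentile 61.1 and Lyl1 at 46.0, and the other genes lay lower. Probe sets of like signal were not compared. GFP replicate 3 was the lowest of the 6 arrays for 7 of the 10 genes (Lyl1, Ldb1, Klf1, Runx1, Fli1, Cbfa2t3 and Myb). GFP+FOG1 replicate 3 was the highest for 4 (Lyl1, Gfi1b, Cbfa2t3 and Myb). The same counts over all probe sets are not given here, so these do not single out the genes. The mean of the 10 genes, each centred on its own mean, was -0.0088, 0.020 and -0.035 on the GFP arrays and -0.0066, -0.013 and 0.044 on the GFP+FOG1 arrays. The genes most like this mean over the 6 arrays were Ogdh (Pearson's r = 0.996), Bbc3 (0.993) and Zfp526 (0.988), out of 10610 compared. The points are 6 arrays that each gene shares, and 165 genes reached 0.9 or more, so the names are a description only.

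Other genes of the same complexes and pathways were read from lists, each gene at its brightest probe set. Of the 8 GATA and FOG genes 1 passed, Zfpm1, which was higher by 0.74, and 0 passed lower. For Gata4 the log2 change was -0.25 (limma adjusted p = 0.21) and for Gata1 it was -0.20, while Gata2 had -0.098 and Gata3 -0.15, and none of these passed. Zfpm2, the relative of Zfpm1, had -0.18. The list's median was -0.14, but only 3 of the 8 genes had a signal above the 95th percentile of olfactory receptor probe sets, and Gata1, Gata2, Gata3, Gata5 and Zfpm2 did not.

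E proteins, the dimer partners of TAL1 and LYL1, and the Id proteins that block them were measured by 7 genes, of which 0 passed in either direction, with a median of 0.0069. The smallest unadjusted p values belonged to Id1, at a log2 change of -0.27, to the E protein gene Tcf12, at 0.095, and to Id2, at -0.16. Id1 had 7.82, 7.78 and 7.88 on the GFP arrays and 7.76, 7.42 and 7.47 on the GFP+FOG1 arrays (limma adjusted p = 0.34). Its groups did not overlap, and GFP+FOG1 replicate 1 lay closest to the GFP arrays.

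Among 10 genes listed as relatives and cofactors of LDB1 and LMO2, 0 passed, and the median was 0.030. The list counts Ssbp1, though its product is neither. Ssbp2, whose product stabilizes LDB1, was at a log2 change of -0.18 (limma adjusted p = 0.33), with 9.90, 9.97 and 9.92 on the GFP arrays and 9.86, 9.68 and 9.70 on the GFP+FOG1 arrays. As for Lmo2, all GFP+FOG1 values were below the GFP values. Rlim, a ubiquitin ligase of LIM-domain cofactors, had 0.095 and Ldb2 -0.11.

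The list of relatives of the DNA-binding partners, which also counts Cbfb though it is not one, had 20 of 21 genes measured. Of these genes 0 passed, with a median of 0.016. Those with the smallest unadjusted p were Klf3, Klf2 and Klf6: the log2 change was -0.32 for Klf3 (limma adjusted p = 0.24), -0.23 for Klf2 (adjusted p = 0.25) and -0.25 for Klf6 (adjusted p = 0.46). Klf3, a repressor that binds the same CACCC boxes as KLF1, had 8.37, 8.55 and 8.52 on the GFP arrays and 8.30, 8.11 and 8.07 on the GFP+FOG1 arrays. Klf2, a factor of lymphocyte quiescence and trafficking, had 9.58, 9.61 and 9.44 and then 9.37, 9.28 and 9.31. For Klf2 and Klf3 the groups did not overlap, while for Klf6 they did. The other KLF genes of the list went both ways, with Klf4 at 0.20 and Klf13 at -0.073, and were chosen for mention after their values were seen.

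Corepressors and coactivators that GFI1B, CBFA2T3 or MYB bind were measured by 15 of 17 genes. None passed (limma, adjusted p at least 0.21), and the median was 0.041. Rcor2, a member of the CoREST family, had 8.40, 8.44 and 8.42 on the GFP arrays and 8.59, 8.61 and 8.59 on the GFP+FOG1 arrays, a log2 change of 0.18 (limma adjusted p = 0.21). All 3 GFP+FOG1 arrays lay above all 3 GFP arrays. The histone deacetylase genes Hdac1 and Hdac2 each had 0.15, and their groups did not overlap either.

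Listed target genes of the partners did not pass in any lineage. For the erythroid targets of GATA1, TAL1 and KLF1, 14 of 22 were measured, 0 passed and the median was -0.065, with Epb42 at -0.078, Rhd at -0.10 and Tspan33 at -0.084. Only 5 of the 14 had a signal above the 95th percentile of olfactory receptor probe sets. For megakaryocyte targets of FLI1, RUNX1 and GATA1, 13 of 18 were measured and 0 passed, with a median of -0.0090. The integrin gene Itga2b was at 0.22 (limma adjusted p = 0.29), Gp5 at 0.096 and Gp9 at -0.098. Of the 13, 7 had a signal above that 95th percentile, and Gp5 did not. For MYB and RUNX1 targets of progenitors and lymphocytes, 17 of 18 were measured and 0 passed, with a median of -0.0034. Slamf7, a SLAM family receptor, and Rag2, of the recombinase of antigen receptor genes, each had 0.23 (limma adjusted p = 0.22 and 0.33), and the cytokine gene Il3 had -0.16. Of the 17, 7 had a signal above the same percentile. Rag2 and Il3 did not, with signals above 90.8% and 48.2% of the olfactory receptor probe sets, so their changes may hold little besides background. At an unadjusted p under 0.05 (limma) there were 4 of 8 GATA and FOG genes (Zfpm1, Gata4, Gata1 and Zfpm2) and 1 of 7 E and Id protein genes. In the list for LDB1 and LMO2 there was 1 of 10, and in that for the DNA-binding partners 2 of 20. There were also 3 of 15 corepressors and coactivators, 0 of 14 erythroid, 1 of 13 megakaryocyte and 3 of 17 MYB and RUNX1 targets. Of all probe sets, 12.5% had such a p. The 4 GATA and FOG genes cannot be read against that share. Zfpm1 is the added gene, and the signals of Gata1 and Zfpm2 lay below the 95th percentile of olfactory receptor probe sets.

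**Figure D4:**
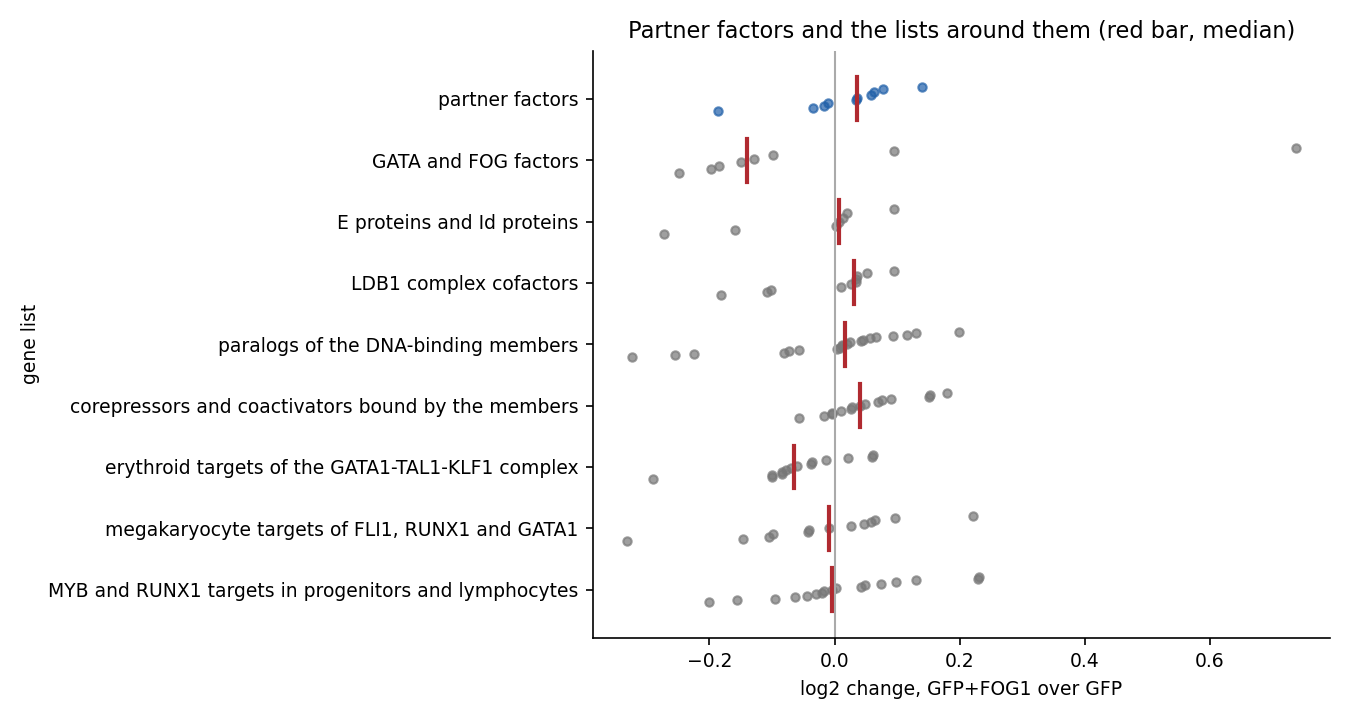
Log2 change of GFP+FOG1 over GFP for each measured gene of the partner factors (blue) and of the lists around them (grey), 1 point per gene at its brightest probe set, with the list median as a red bar. Medians run from -0.14 for the GATA and FOG genes to 0.041 for the corepressors and coactivators, with 0.035 for the partner factors, and Zfpm1 at 0.74 is the only point that passed.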

How the data were processed

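The values deposited by the authors are log2 signals of 34760 probe sets on 6 arrays. Per the labels' protocols, 100 ng of total RNA isolated without DNase treatment was amplified with a whole-transcript kit, fragmented and biotin-labelled. The affy package is named, without its version, in the submitters' processing notes. How background, normalization and probe summary were handled was not stated there or in the labels, and the log2 scale was read from the deposited values. If the arrays were forced to a common distribution, a shift shared by most genes would be hidden.

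Symbols came from the platform annotation, checked through Entrez identifiers against RefSeq (GRCm38.p6), which changed 0. Of the probe sets, 21640 had 1 symbol, 1321 several and 11799 none in the table used here. limma 3.58.1 in R 4.3.3 (lmFit, eBayes) was fitted on all probe sets without a filter or block, tested on simulated data, and p-values were adjusted by Benjamini-Hochberg with a threshold of 0.05. Intervals are the fit's 95% intervals, unadjusted, and, since separate infections are not stated, p-values cover no more than the spread among these 3 samples a group, whose number limits precision. The alternatives were quantile normalization, median centring, leaving out dim probe sets, 1-symbol probe sets only, array weights, robust estimation with a variance trend, the replicate block, averaging the probe sets of a gene, and each array left out in turn. The genes and lists were chosen with earlier results of these data known. All 10 genes were named, with Zfpm1, 3 GATA genes and up to 3 genes of each list by smallest unadjusted p. Figures used matplotlib 3.10.9 in Python 3.11.15.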

Additional observations from a re-analysis of the deposited data

How the results depend on the processing

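None of the 10 genes passed in any of the 13 settings refitted with the adjusted p of 0.05 (smallest adjusted p 0.16), and 1 of the 11 probe sets, that of Lmo2, had an unadjusted p under 0.05. Of 144 changes recomputed for these probe sets, 11 turned sign, all from changes of 0.036 or less in size. After median centring Runx1 was at 0.0084, Ldb1 at 0.016 and the dimmer Cbfa2t3 probe set at 0.025, and the mean of both Cbfa2t3 probe sets was 0.029. Leaving out 1 array gave Tal1 -0.052 to 0.080, Lyl1 -0.019 to 0.072, Ldb1 -0.022 to 0.0043, Klf1 -0.065 to 0.0023 and the dimmer Cbfa2t3 probe set -0.047 to 0.033. The median of the 10 genes ran from 0.0040 without GFP replicate 3 to 0.062 without GFP replicate 2. Of 55 recomputed GFP levels 0 moved by 1 SD. Those that leave out 1 of the 3 GFP arrays could not move that far, so they say nothing on stability. Klf1 had no value without dim probe sets, which leave it out by construction. Over all probe sets, the count of 78 was 73 and 64 after quantile normalization and median centring, 87 with array weights, 94 without dim probe sets, 102 with 1-symbol probe sets only and 116 with a variance trend. It became 20 at an adjusted p under 0.01 and 17 to 38 without 1 array (20, 21 and 21 without GFP replicates 1, 2 and 3, and 38, 17 and 28 without GFP+FOG1 replicates 1, 2 and 3), where fewer samples enter. The replicate numbers gave no sign of pairing: deviations from the group means correlated at -0.068, 0.0084 and -0.040 between arrays of the same number; none of the 6 was closest to its own number in the other group. With the number as a replicate block, 9 probe sets passed and none of the 10 genes did. Signal over background limits Klf1, whose signal lies among the olfactory receptor probe sets.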
